A study of Mus musculus with 80 samples.

Results

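The genes described here are 35 genes of blood and lymphatic endothelium and of vessel growth, picked by symbol from their known roles in the annotated expression table of the series. All 35 were found among its 38827 genes, each measured by 1 array feature. The tissue was subcutaneous white fat of male mice of 42 strains, 40 of them BXD lines, which are inbred strains bred from C57BL/6J and DBA/2J, and the other two those parents. High fat pools (38 strains) came from mice given Harlan 06414 from week 8, and chow pools (42 strains) from mice kept on Harlan 2018. All mice were fasted overnight, killed at 29 weeks and perfused, and each array held equal parts of RNA from about 5 mice of 1 strain and diet. The 38 strains with an array on each diet, 36 BXD strains and the 2 parents, carry the comparisons; for BXD56, BXD60, BXD92a and BXD96 there was a chow array only. Levels are scores scaled so that every array has a mean of 8 and an SD of 2 over all its features. Differences are therefore in scale units of 0.5 array SD, not log2 units, and are relative to all other features. Values are means ± SD over 38 strains, and adjusted p-values are limma's, two-sided, over all genes, with 0.05 as the threshold.

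Endothelial cells line every vessel of fat, and they grow, rest or sprout under a small set of signals. VEGF-A acts through the receptors Kdr and Flt1, the angiopoietins act through Tek with its partner Tie1, Dll4 and the Notch receptors set which cells sprout, and Acvrl1 with its co-receptor Eng reads circulating BMP9. Transcription factors of the ETS and SOXF families keep the endothelial program, and Prox1 turns it towards the lymphatic fate. In adipose tissue the capillary bed supplies fatty acids and oxygen to fat cells and is remodelled when the depot grows.

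The strain labels of high fat and chow arrays were checked against each other with 100 genes whose levels fell into 2 clusters of strains. In 23 strains the high fat and chow arrays matched over these genes (r of 0.777 to 0.959). In the other 15 strains, BXD51, BXD55, BXD63, BXD73, BXD75, BXD79, BXD80, BXD81, BXD83, BXD84, BXD85, BXD87, BXD89, BXD90 and BXD95, they did not (r of -0.272 to 0.314), and the high fat array was most like the chow array of another strain (r of 0.799 to 0.922). No array was moved. For the diet change, values in the 23 matching strains are given beside those of all 38 where they end or add a call, and as counts otherwise. The high fat array of BXD63 stood apart: it had the lowest mean level of the 35 genes on that diet and the lowest level of the fat cell hormone gene Lep (11.63). It also had the highest mean of skeletal muscle markers on that diet (13.96). Leaving BXD63 out changed no diet call among the 35 genes.

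On high fat, 26 of the 35 genes were higher and 3 were lower (Angpt1, Vegfa and Prox1), while 6 did not pass the threshold (Tek, Kdr, Flt1, Robo4, Tal1 and Icam2). Many genes differed between diets: 36.7% of all genes were higher on high fat and 24.5% were lower. The median change of the 35 genes was 0.20 scale units, against 0.027 for all genes. Changes were small, and only Aplnr and Angpt1 moved by 0.5 units or more. In the 23 matching strains 26 genes were higher and 2 lower, where 32.5% and 22.2% of all genes were. Vegfa, Dll4 and Fli1 lost their call there, Tek and Robo4 gained one, and no other call of the 35 differed. Among the rest, the changes in matching strains were 0.45 for Tie1, 0.36 for Cldn5, 0.27 for Notch4, 0.23 for Angpt2, 0.22 for Flt4 and -0.19 for Prox1. With the arrays quantile normalized 22 were higher and 3 lower, where 30.1% and 27.9% of all genes were, and the calls of Dll4, Acvrl1, Egfl7 and Fli1 were lost. Whole tissue was measured, so more endothelial cells and more RNA of these genes per cell cannot be told apart.

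**Figure D1:**
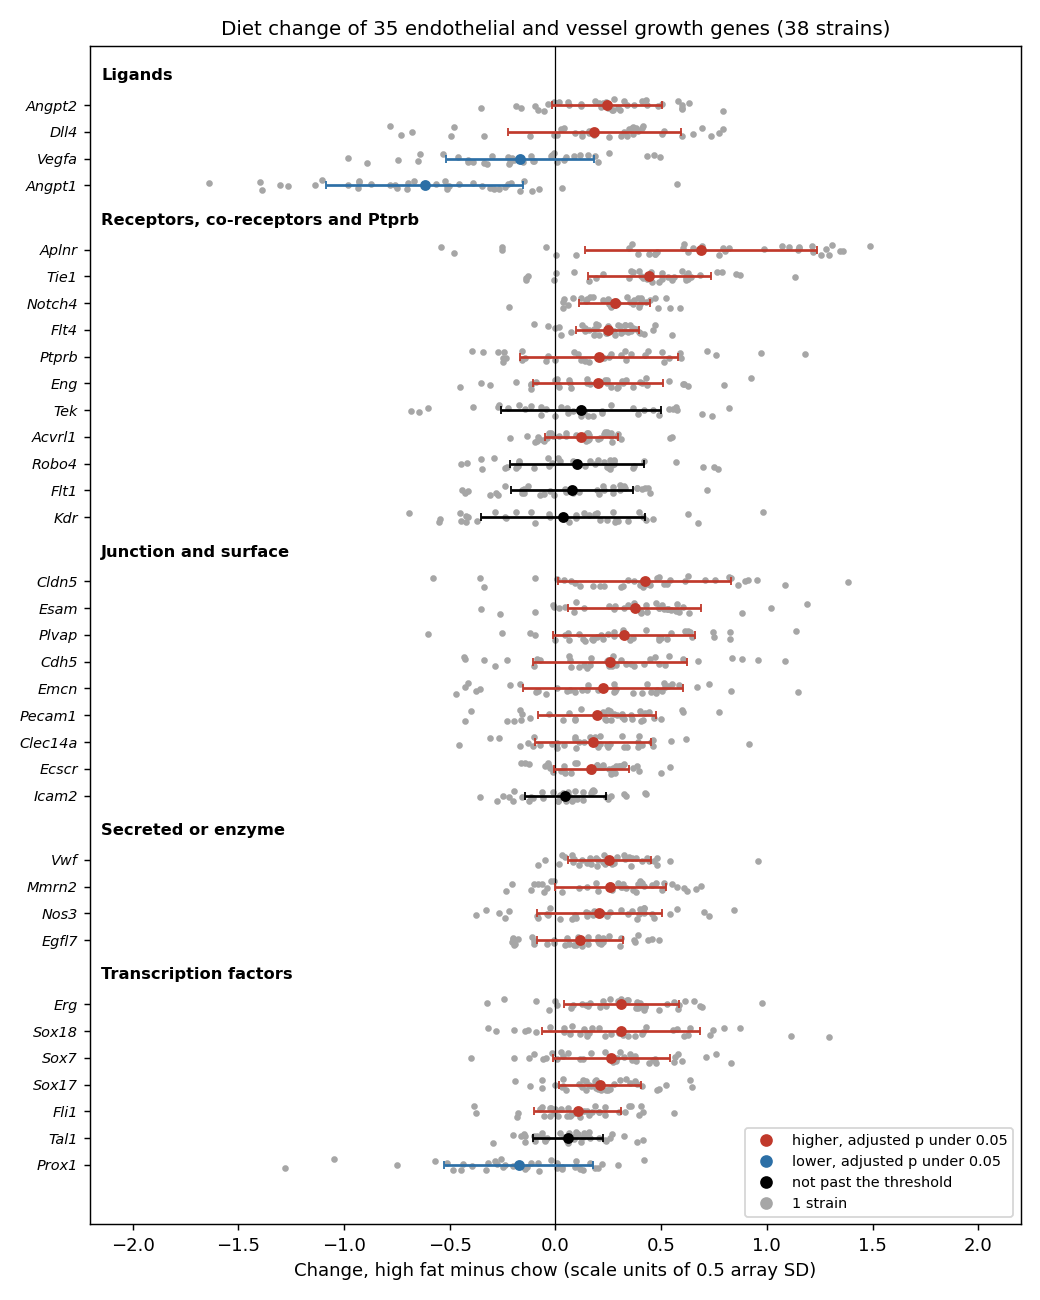
Change of each of the 35 genes, high fat minus chow, in scale units of 0.5 array SD. Grey points are the 38 strains, coloured points and bars the mean and SD, red for genes higher and blue for genes lower at an adjusted p under 0.05, black for the others. Aplnr (0.69) lies farthest right and Angpt1 (-0.62) farthest left.

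Among the ligands, the angiopoietins moved in opposite directions. Angpt1, the TIE2 agonist that keeps vessels quiescent, ranged from 8.19 over a median of 9.00 to 9.83 on high fat, against a lowest, median and highest level of 8.86, 9.67 and 10.21 on chow. The ranges overlapped, but 12 high fat arrays lay below the lowest chow array and none above the highest. It fell by 0.62 ± 0.47 units, with 36 of 38 strains lower (adjusted p = 2.08e-09). The fall was -0.42 ± 0.38 in the matching strains, 22 of 23 of them lower (adjusted p = 3.15e-05), and -0.92 ± 0.44 in the other 15. Angpt2, which endothelial cells release and which competes with Angpt1 at TIE2, ranged from 8.57 over 9.26 to 9.72 on high fat, against 8.62, 8.99 and 9.54 on chow. Its ranges overlapped widely, although 36 high fat arrays lay above the chow median. It rose by 0.24 ± 0.26 units, with 30 strains higher (adjusted p = 3.63e-06). Angpt1 was lower and Angpt2 higher in the same strain in 30 of 38 strains and in 18 of the 23 matching ones, while both were lower in 6 strains.

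Vegfa, the main growth factor of blood vessel endothelium, ranged from 11.74 over 12.13 to 12.73 on high fat, against 11.75, 12.32 and 12.82 on chow. Nearly the whole range was shared, and 9 high fat arrays lay above the chow median. Vegfa fell by 0.17 ± 0.35 units, lower in 26 strains (adjusted p = 0.00807), and in the matching strains the fall of 0.13 ± 0.30 did not pass (adjusted p = 0.0733). The membrane-bound Notch ligand Dll4, typical of tip and arterial cells, had a mean of 10.41 ± 0.29 on high fat, against 10.22 ± 0.35 on chow. Its rise of 0.18 ± 0.41 units was seen in 30 strains (adjusted p = 0.0128), a call lost in the matching strains (adjusted p = 0.0683) and after quantile normalization (adjusted p = 0.136).

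**Figure D2:**
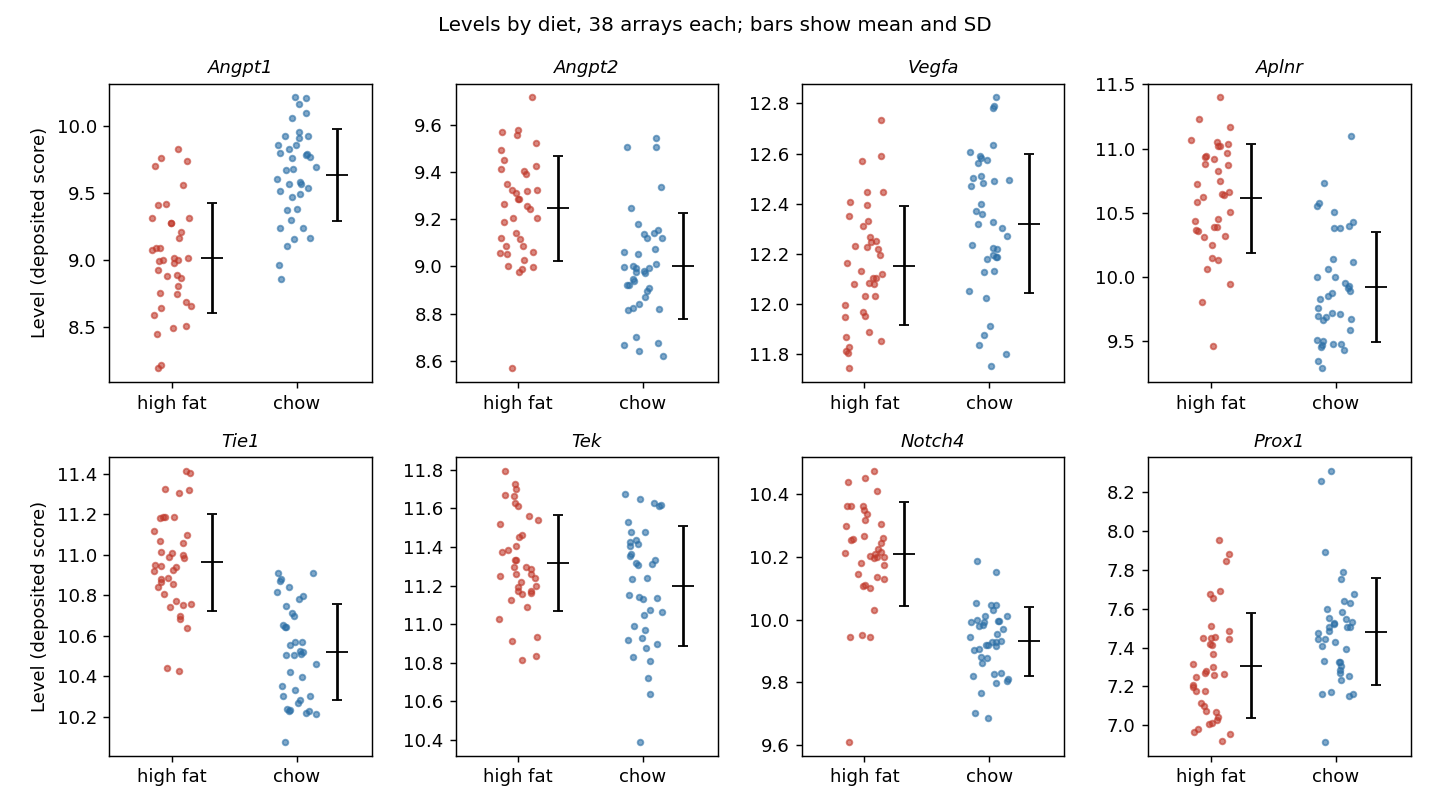
Levels of 8 of the genes on each array, in deposited scores, with high fat (red) left of chow (blue) and 38 arrays each; black bars show mean and SD. Angpt1, Vegfa and Prox1 are lower on high fat, Angpt2, Aplnr, Tie1 and Notch4 are higher, and Tek, which did not pass the threshold, overlaps throughout.

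The partner receptors Tie1 and Tek differed in how they moved. Tie1, a partner receptor that modulates signalling by Tek, ranged from 10.43 over 10.95 to 11.42 on high fat, against 10.07, 10.51 and 10.91 on chow. It was among the better separated genes, with 23 high fat arrays above every chow array. It rose by 0.44 ± 0.29 units, with 34 strains higher (adjusted p = 1.06e-10). Tek, the angiopoietin receptor TIE2, ranged from 10.81 over 11.29 to 11.79 on high fat, against 10.39, 11.24 and 11.67 on chow, with almost the same medians. Its change of 0.12 ± 0.38 units was positive in 24 strains and did not pass (adjusted p = 0.0772), but it passed in the matching strains at 0.20 ± 0.32 (adjusted p = 0.00951). The change of Tie1 was above that of Tek in 33 of 38 strains. Ptprb, the phosphatase VE-PTP that removes phosphate from TIE2 and from the cadherin of endothelial junctions, averaged 12.13 ± 0.27 on high fat and 11.93 ± 0.28 on chow, a change of 0.20 ± 0.37 (adjusted p = 0.00269).

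The VEGF receptors split. Flt4, the VEGF-C receptor of lymphatic and sprouting endothelium, ranged from 9.26 over 9.40 to 9.69 on high fat, against 8.95, 9.17 and 9.40 on chow. All 38 high fat arrays lay above the chow median, and 29 chow arrays lay below the lowest high fat array. Flt4 rose by 0.25 ± 0.15 units, higher in 35 strains (adjusted p = 5.34e-11). Kdr, the main signalling receptor for VEGF-A, had the same median of 12.19 on high fat and on chow, with ranges of 11.73 to 12.86 on high fat and 11.38 to 12.75 on chow. Its change of 0.03 ± 0.39 units had 21 strains higher and 17 lower (adjusted p = 0.642). Flt1, which binds VEGF-A tightly and signals weakly, changed by 0.08 ± 0.29 (adjusted p = 0.138).

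Notch4, the Notch receptor largely limited to endothelium, ranged from 9.61 over 10.21 to 10.47 on high fat, against 9.69, 9.93 and 10.18 on chow. In 25 strains the high fat array lay above every chow array, and C57BL/6J, the lowest on high fat, was the only strain of 38 with a lower value there. Notch4 rose by 0.28 ± 0.17 units, higher in 37 strains (adjusted p = 3.92e-11). Aplnr, the apelin receptor of growing veins and capillaries, had the largest rise of the 35 genes. It ranged from 9.46 over 10.64 to 11.40 on high fat, against 9.29, 9.86 and 11.10 on chow, with BXD63 lowest and BXD70 highest on high fat. The rise was 0.69 ± 0.55 units in 33 strains (adjusted p = 6.59e-09) and 0.73 ± 0.53 in the matching strains (adjusted p = 1.61e-06). Its ligand gene Apln rose as well, by 0.45 ± 0.48 units in 32 strains (adjusted p = 3.29e-06), and both were higher in 30 strains.

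Of the BMP9 receptor complex, the co-receptor gene Eng averaged 12.51 ± 0.22 on high fat and 12.31 ± 0.22 on chow, higher by 0.20 ± 0.31 (adjusted p = 0.000538). Acvrl1, which encodes the kinase ALK1, averaged 10.16 ± 0.16 on high fat and 10.04 ± 0.16 on chow, higher by 0.12 ± 0.17 in 26 strains (adjusted p = 0.000316). After quantile normalization the change of Acvrl1 was 0.05 and did not pass (adjusted p = 0.123), and of the 15 strains whose arrays do not match, 7 were higher and 8 lower. Robo4, a receptor that steadies endothelial junctions, changed by 0.10 ± 0.32 and did not pass (adjusted p = 0.0745), though it did in the matching strains (0.14 ± 0.29, adjusted p = 0.0484).

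Promoter sequence was read for Tie1 and Tek, a receptor pair whose changes differed, and for Notch4, the gene with the most strains higher. Each window runs from 250 bases before to 50 bases after a gene start of the RefSeq annotation (GRCm38.p6), 5′ to 3′ on the gene's strand. Capitals mark AGGAAG or its reverse complement CTTCCT, a spelled-out form of the site bound by ETS factors such as Erg and Fli1. The shorter core GGAA, or its reverse complement TTCC, is not marked where it stands outside this form. The windows are chr4:118489800-118490099 on the minus strand for Tie1, chr4:94739039-94739338 on the plus strand for Tek and chr17:34564045-34564344 on the plus strand for Notch4.
Tie1: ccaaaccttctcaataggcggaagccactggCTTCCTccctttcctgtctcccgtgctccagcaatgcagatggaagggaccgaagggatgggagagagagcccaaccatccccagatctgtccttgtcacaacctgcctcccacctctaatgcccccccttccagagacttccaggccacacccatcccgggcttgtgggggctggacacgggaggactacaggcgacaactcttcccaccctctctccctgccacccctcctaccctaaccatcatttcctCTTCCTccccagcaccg
Tek: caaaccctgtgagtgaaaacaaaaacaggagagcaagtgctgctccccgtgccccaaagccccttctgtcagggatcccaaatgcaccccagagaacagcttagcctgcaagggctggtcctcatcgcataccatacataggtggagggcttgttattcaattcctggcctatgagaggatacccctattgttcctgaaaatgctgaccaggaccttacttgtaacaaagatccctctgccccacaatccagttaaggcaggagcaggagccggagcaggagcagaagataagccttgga
Notch4: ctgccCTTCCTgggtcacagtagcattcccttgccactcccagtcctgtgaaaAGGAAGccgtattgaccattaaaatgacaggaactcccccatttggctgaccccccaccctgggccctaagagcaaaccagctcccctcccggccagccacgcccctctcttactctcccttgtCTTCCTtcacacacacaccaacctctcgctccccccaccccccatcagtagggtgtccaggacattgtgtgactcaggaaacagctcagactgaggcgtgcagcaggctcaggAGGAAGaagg

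The Notch4 window held 4 such motifs, that of Tie1 held 2 and that of Tek none. The Tek window does hold the shorter TTCC, so it does not lack the ETS core. Windows were available for 17 of the 35 genes, 24 windows in all, and 9 of the 24 (37.5%) held the motif, in 8 genes (Egfl7, Emcn, Eng, Erg, Flt1, Notch4, Robo4 and Tie1). Of all 32851 windows of the same length, 35.4% held it. The match is a description of letters. Over 38 strains Flt1 and Robo4 held the motif and did not pass the diet test, and Dll4, Flt4 and Cldn5 passed without it. In the matching strains Robo4 passed and Dll4 did not. A link between the motif and the diet change was not tested.

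Of the 9 junction and surface genes, 8 rose and Icam2 did not pass, where 36.7% of all genes were higher. The largest change was that of Cldn5, the claudin of endothelial tight junctions, which ranged from 11.14 over 11.82 to 12.69 on high fat, against 10.59, 11.44 and 12.38 on chow. C57BL/6J was lowest on both diets, and 11 chow arrays lay below the lowest high fat array. Cldn5 rose by 0.42 ± 0.41 units in 34 strains (adjusted p = 4.53e-07). Esam, an adhesion molecule of the same junctions, averaged 10.59 ± 0.26 on high fat and 10.22 ± 0.29 on chow and rose by 0.37 ± 0.32 in 33 strains (adjusted p = 3.27e-08). Plvap, which builds the diaphragms of caveolae and fenestrae, averaged 11.23 ± 0.28 on high fat and 10.90 ± 0.21 on chow, with 16 high fat arrays above every chow array. Plvap rose by 0.32 ± 0.34 in 33 strains (adjusted p = 1.85e-06). In C57BL/6J it was instead lower by 0.60, the most negative change of any strain.

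The adherens junction gene Cdh5, or VE-cadherin, averaged 13.43 ± 0.26 on high fat and 13.18 ± 0.30 on chow, higher by 0.26 ± 0.36 in 30 strains (adjusted p = 0.000165). Pecam1, the adhesion molecule CD31 used to stain vessels, averaged 12.17 ± 0.22 on high fat and 11.98 ± 0.24 on chow, higher by 0.20 ± 0.28 in 29 strains (adjusted p = 0.000216). Emcn, a sialomucin of capillaries and veins, rose by 0.22 ± 0.38 in 28 strains (adjusted p = 0.00131). Clec14a, a surface lectin that binds Mmrn2, rose by 0.18 ± 0.28 in 29 strains (adjusted p = 0.000652). Ecscr, a regulator of endothelial migration and survival, rose by 0.17 ± 0.18 in 29 strains (adjusted p = 3.51e-06). Icam2, a constitutive ligand for leukocyte integrins, changed by 0.05 ± 0.19 (adjusted p = 0.195).

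All 4 secreted or enzyme genes rose, where 36.7% of all genes were higher. Vwf, the clotting factor stored in endothelium, ranged from 9.34 over 9.73 to 10.12 on high fat, against 9.15, 9.49 and 9.84 on chow, and 37 high fat arrays lay above the chow median. It rose by 0.26 ± 0.20 units in 36 strains (adjusted p = 7.27e-09). Mmrn2, a matrix protein laid down by endothelium, averaged 10.60 ± 0.20 on high fat and 10.34 ± 0.21 on chow and rose by 0.26 ± 0.26 in 28 strains (adjusted p = 1.07e-06). Nos3, the endothelial nitric oxide synthase, averaged 10.18 ± 0.25 on high fat and 9.98 ± 0.20 on chow and rose by 0.21 ± 0.30 in 28 strains (adjusted p = 0.000224). Egfl7, a secreted factor that shapes vessel tubes, rose by 0.11 ± 0.20 in 26 strains (adjusted p = 0.0028), a call lost after quantile normalization (0.04, adjusted p = 0.357).

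Among the transcription factors, 5 of 7 rose, Prox1 fell and Tal1 did not pass, where 36.7% of all genes were higher and 24.5% lower. Erg, an ETS factor that maintains endothelial identity, ranged from 9.93 over 10.65 to 11.02 on high fat, against 9.82, 10.34 and 10.68 on chow, and 18 high fat arrays lay above every chow array. Erg rose by 0.31 ± 0.27 units in 33 strains (adjusted p = 6.5e-08). Its relative Fli1, which blood cells express too, rose by 0.11 ± 0.21 in 26 strains (adjusted p = 0.00625) but not in the matching strains (adjusted p = 0.0773) or after quantile normalization (adjusted p = 0.162). The SOXF factors, which act in arterial and lymphatic specification, rose together. Sox18 rose by 0.31 ± 0.37 (adjusted p = 1.77e-05), Sox7 by 0.26 ± 0.28 (adjusted p = 2.45e-06) and Sox17 by 0.21 ± 0.19 (adjusted p = 2.99e-07), in 31, 31 and 33 strains. Tal1, a factor of blood and endothelial precursors, changed by 0.06 ± 0.17 (adjusted p = 0.0623).

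Prox1, the master factor of lymphatic endothelium, ranged from 6.92 over 7.27 to 7.96 on high fat, against 6.91, 7.48 and 8.31 on chow. Most of the range was shared, and 8 high fat arrays lay above the chow median. It fell by 0.17 ± 0.35 units, lower in 23 strains (adjusted p = 0.00652). The signal was low: its means of 7.31 on high fat and 7.48 on chow lay below the median of every array (7.742 to 7.833). Prox1 therefore dropped out of the run without the lowest 40% of genes. Across arrays Prox1 moved with the mean of the B cell and lymph node marker list (r = 0.79 over 38 high fat arrays and 0.58 over 38 chow arrays, as a description). With means of other tissues' markers in the model its change was -0.06 and did not pass (adjusted p = 0.298).

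Subcutaneous pads can carry muscle, lymph node and skin, and the markers of these tissues also differed between diets. Over all genes 36.7% were higher and 24.5% lower on high fat. Of 15 skeletal muscle markers 12 were lower and 0 higher on high fat, with list means from 8.83 to 13.96 on high fat and from 8.63 to 14.45 on chow. Of 12 B cell and lymph node markers 8 were lower and 0 higher, with list means from 8.27 to 11.60 on high fat and 8.58 to 11.49 on chow. Of 10 keratinocyte and epithelial markers 5 were lower and 1 higher, with list means of 7.65 to 8.35 on high fat and 7.77 to 8.99 on chow. The score has no zero, so no marker can be called absent. With the means of these 3 lists as covariates, 17 of the 35 genes were higher and 2 lower, where 31.7% and 18.9% of all genes were. Aplnr (0.53), Tie1 (0.34), Plvap (0.33), Cldn5 (0.33), Esam (0.25), Notch4 (0.24), Erg (0.22) and Flt4 (0.21) stayed above the threshold, and so did the falls of Angpt1 (-0.66) and Vegfa (-0.18). Pecam1, Cdh5, Eng, Emcn, Ptprb, Dll4, Clec14a, Fli1 and Egfl7 no longer passed, with changes of 0.05 to 0.12.

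**Figure D3:**
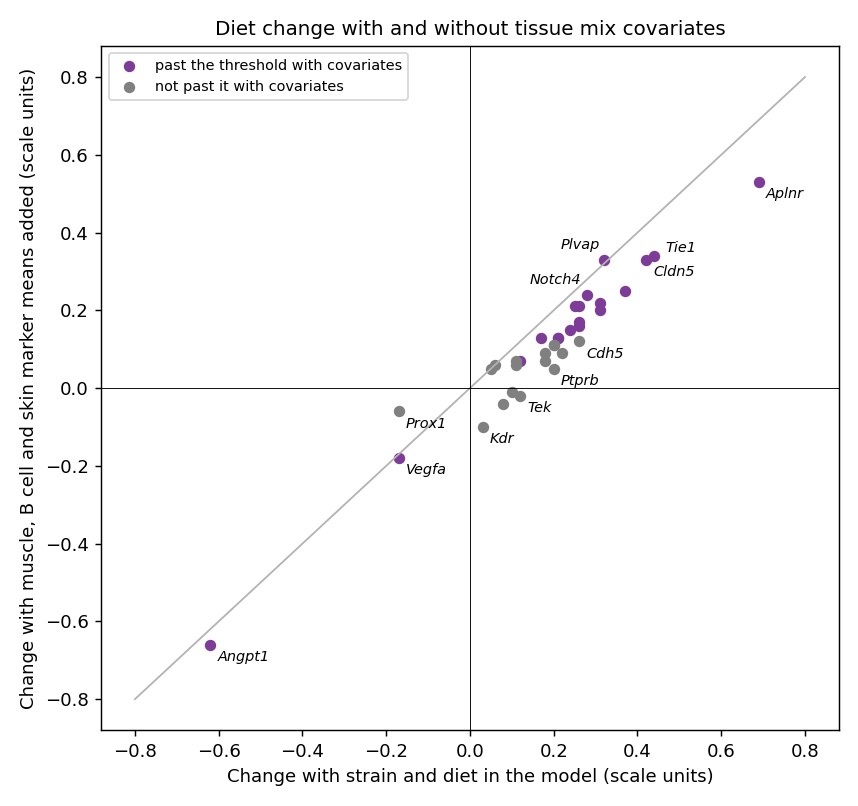
Change of each of the 35 genes with strain and diet in the model (horizontal) and with the means of muscle, B cell and keratinocyte markers added (vertical), both in scale units. On the grey line the change is the same, purple marks genes past the threshold with the covariates, and most genes lie below the line on the right, Aplnr at 0.53 against 0.69.

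Markers of other cells of the fat depot differed as well, again beside 36.7% of all genes higher and 24.5% lower. Macrophage markers were higher in 8 of 10 and lower in 0, with list means from 9.99 to 12.02 on high fat and 9.71 to 11.47 on chow. Smooth muscle and pericyte markers were higher in 6 of 11, with list means from 10.75 to 11.55 on high fat and 10.43 to 11.38 on chow. Fat cell markers were lower in 5 of 12 and higher in 1, with list means from 13.62 to 14.27 on high fat and 13.74 to 14.38 on chow. Of 11 mast cell and megakaryocyte markers, cells that share Vwf and Tal1 with endothelium, 5 were higher and 1 lower, with list means from 8.90 to 9.77 on high fat and 8.91 to 9.86 on chow. The number of higher mast cell and megakaryocyte markers lies near the share of all genes. The part of all these cell types in the changes of the 35 genes was not tested.

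Strains differed in how many of the genes followed the common direction. Over 38 strains the number of the 35 genes that were higher on high fat ranged from 4 over a median of 28.5 to 34, and more than 17 genes were higher in 31 strains. In the 23 matching strains the median was 30, and more than 17 genes were higher in 19. The genes vary together, so a strain's count is not a set of separate observations. No share over all genes was computed for each strain. BXD49 had 34 genes higher, and DBA/2J had 33. BXD97 went the other way, with 4 higher and 31 lower and a mean change over the 35 genes of -0.22. It is a matching strain, as are BXD69 (13 higher), BXD101 (14) and BXD98 (15), and each of these had more genes lower than higher. The largest mean changes were 0.55 in BXD55, whose arrays do not match, and 0.50 in BXD68, whose arrays do. C57BL/6J had 26 genes higher, but Notch4, Plvap and Tal1 had their most negative change there.

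The strain comparison asks whether genotype shifts these genes over both diets. Strain was called for 1 of the 35 genes, Sox17 (moderated F = 3.31, adjusted p = 0.00739), where 10.4% of all genes were. The share of variance between strains had a median of 23.6% over the 35 genes, from 4.0% in Eng to 53.7% in Sox17, against 14.6% over all genes. In the 23 matching strains 8 genes were called (Sox17, Acvrl1, Clec14a, Esam, Sox18, Vwf, Angpt1 and Sox7), with 17.7% of all genes called, and the median share was 33.6%, where that of all genes was 19%. Sox17 (64.8%) and Acvrl1 (63.0%) had the largest shares in these 23 strains and Cdh5 (6.9%) the smallest. With the 3 tissue marker means as covariates 5 genes were called (Sox17, Angpt2, Esam, Emcn and Flt1), where 7.63% of all genes were. A strain effect is read here from 2 pools, 1 on each diet, so a strain-specific diet response counts as error.

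Sox17 ranged over strains from 8.85 in BXD63 over 9.30 to 9.75 in BXD103 on high fat, and from 8.60 in C57BL/6J over 9.10 to 9.48 in BXD85 on chow. The parent C57BL/6J was thus at the low end of chow strains, and it was the lowest on chow for Tek, Esam, Cldn5, Robo4, Sox17 and Acvrl1 as well.

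Between the parents, DBA/2J was higher in 6 of the 35 genes, where 7.08% of all genes were, and lower in 1, where 4.61% were. The higher genes were Sox18, Esam, Sox7, Tie1, Notch4 and Sox17, and the lower gene was Angpt1. Sox18 was at 11.51 and 10.90 in DBA/2J on high fat and chow, against 10.22 and 10.36 in C57BL/6J, a difference of 0.92 (adjusted p = 0.0144). Esam was at 10.83 and 10.22 in DBA/2J, against 9.91 and 9.64 in C57BL/6J, a difference of 0.75 (adjusted p = 0.0189). The other differences, DBA/2J minus C57BL/6J, were 0.66 for Sox7 (adjusted p = 0.0197), 0.52 for Notch4 (0.00425), 0.41 for Sox17 (0.0432) and 0.58 for Tie1 (0.0496). Angpt1 was at 8.59 and 9.16 in DBA/2J on high fat and chow, against 9.76 and 9.93 in C57BL/6J, a difference of -0.97 (adjusted p = 0.0393). DBA/2J was above C57BL/6J on both diets in 24 of the 35 genes and below on both in 2, and the order turned between diets in 9.

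With the 3 tissue marker means as covariates only Notch4 kept its parental call, where 2.96% of all genes were higher and 2.14% lower in DBA/2J, and Angpt1 did not pass (-1.03, adjusted p = 0.0717). In the fit to the 23 matching strains DBA/2J was higher in 8 genes, Dll4 and Acvrl1 being added, and lower in 2, Angpt1 and Prox1, where 8.59% of all genes were higher and 6.39% lower. Each parent had 2 arrays, and the error came from all 38 strains. The BXD strains filled and passed the parental range. For Angpt1 on high fat, 30 of 36 BXD strains lay between the parents, 5 below both and 1 above both. For Sox17 on chow, 15 lay between the parents and 21 above both, and for Notch4 on high fat all 36 lay between them.

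Within each diet most of the genes rose and fell together over strains. Over 595 pairs the median r was 0.51 on high fat and 0.48 on chow, as a description over 38 arrays of each diet that share their scaling. Cdh5 and Erg were the closest pair on both diets (r = 0.91 on high fat and 0.92 on chow), followed on high fat by Cdh5 and Ptprb (0.90) and on chow by Kdr and Flt1 (0.89). Angpt1, Vegfa, Tal1, Icam2 and Prox1 stood outside this group. Their median r with the other genes on high fat and chow was -0.01 and -0.11 for Angpt1, 0.07 and -0.01 for Vegfa, 0.06 and 0.04 for Tal1, 0.13 and 0.16 for Icam2 and -0.40 and -0.23 for Prox1. Prox1 thus ran against most of the genes (lowest r -0.79, with Notch4 on high fat). Angpt1 had a negative r with 18 of the other genes on high fat and 28 on chow, and Vegfa with 11 and 18. Only Tal1 and Icam2 had a positive median r on both diets, and it was weak. The line is not sharp: Icam2 followed Fli1 on high fat (0.68), and Plvap had a median r of 0.16 on chow too. Angpt1 and Vegfa are ligands that other cells of fat make too.

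**Figure D4:**
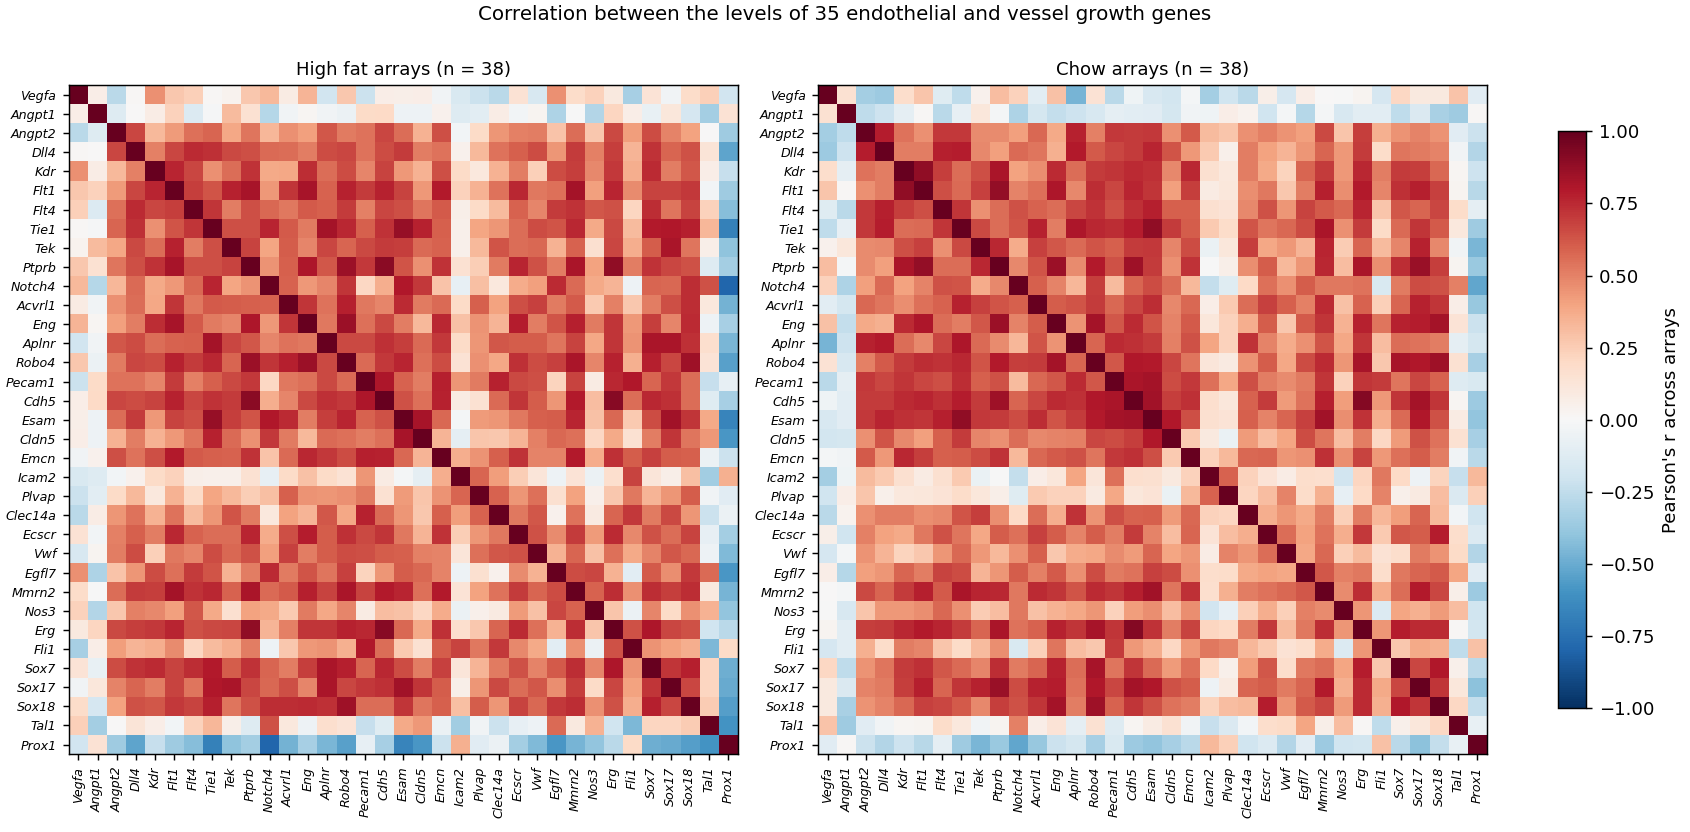
Pearson's r between the levels of the 35 genes over 38 high fat arrays (left) and 38 chow arrays (right), from -1 in blue to 1 in red. A red block joins most genes on both diets (median r 0.51 and 0.48), while Vegfa, Angpt1, Icam2, Tal1 and Prox1 form pale or blue lines.

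The genes also followed the smooth muscle and pericyte markers, with a median r of 0.67 on high fat and 0.68 on chow, and up to 0.87 for Cdh5 on chow. Their median r with macrophage markers was 0.32 on high fat and 0.28 on chow, with fat cell markers 0.32 and 0.30, with skeletal muscle markers -0.09 and -0.11 and with B cell markers -0.49 and -0.39. Vegfa ran against macrophage markers (-0.48 on high fat and -0.62 on chow), and Nos3 was the gene most tied to fat cell markers on high fat (0.66).

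Correlations were tested for 12 pairs of ligands, receptors and markers within high fat, within chow and for the change, 36 in all, with two-sided permutation tests of 100000 resamples, of which 1e-05 is the smallest p they can give. After adjustment over the 36, Pearson's r passed for 8 pairs on high fat, 5 on chow and 6 for the change. No test asked whether a pair was closer than other pairs of the described genes. Over pairs of these genes the median r was 0.51 on high fat and 0.48 on chow. The median r with the other genes on high fat and chow was 0.66 and 0.70 for Cdh5 and 0.45 and 0.47 for Angpt2. For Dll4 it was 0.57 and 0.51, and for Notch4 0.42 and 0.50. Angpt2 followed Cdh5, its r being 0.67 on high fat (rho = 0.58, adjusted permutation p = 6e-05 and 0.00068), 0.70 on chow (rho = 0.73, 6e-05 and 7.2e-05) and 0.74 for the change (rho = 0.71, 6e-05 and 7.2e-05). Without the 2 strains farthest from the median, r was 0.50, 0.71 and 0.67 in that order. In the 23 matching strains r did not pass on high fat (0.38, adjusted permutation p = 0.125) and passed on chow (0.63) and for the change (0.64), and with the tissue marker means taken out it did not pass on high fat (0.36, adjusted permutation p = 0.0557) and passed on chow (0.70) and for the change (0.59). The Notch pair Dll4 and Notch4 had r = 0.56 on high fat (rho = 0.68), 0.57 on chow (rho = 0.66) and 0.52 for the change (rho = 0.58), with adjusted permutation p-values for r of 0.000884, 0.000884 and 0.00252, and 0.64, 0.58 and 0.54 without 2 strains. In the matching strains r was 0.72, 0.61 and 0.65, and each passed. With the tissue marker means taken out, r still passed on high fat (0.48) and on chow (0.55), but not for the change (0.35, adjusted permutation p = 0.0606). On both diets, r of Angpt2 and Cdh5 lay near the median of Cdh5 and above that of Angpt2. For Dll4 and Notch4, r lay near the median of Dll4 and above that of Notch4 on high fat, and above both on chow.

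Vegfa followed Kdr on high fat (r = 0.46, rho = 0.51, adjusted permutation p = 0.00915 and 0.00335, and 0.50 without 2 strains). On chow it did not pass (r = 0.18, rho = 0.07, adjusted permutation p = 0.364 and 0.705), and the difference between diets was not tested. Over 38 strains, with values as deposited, Angpt1 and Tek passed in no condition (r = 0.32 on high fat, 0.11 on chow and 0.35 for the change, adjusted permutation p = 0.0846, 0.597 and 0.0586). After quantile normalization they passed on high fat (r = 0.36, adjusted permutation p = 0.0474). Angpt2 and Tek passed in each condition as deposited (r = 0.39, 0.47 and 0.45, adjusted permutation p = 0.0309, 0.00709 and 0.0114). On high fat that call was lost after quantile normalization (r = 0.29, adjusted permutation p = 0.104). Lep, a gene of fat cells that rises with their size, followed Cdh5 on high fat (r = 0.66, rho = 0.47), on chow (r = 0.59, rho = 0.59) and for the change (r = 0.61, rho = 0.54), with adjusted permutation p-values for r of 0.00027, 0.00068 and 0.000257 and 0.44, 0.57 and 0.51 without 2 strains. The negative r of Lep and Vegfa on high fat (-0.40, rho = -0.17, adjusted permutation p = 0.0249 and 0.389) was -0.08 without 2 strains and -0.10 without BXD63, so without covariates it rests on those strains. With the tissue marker means taken out, r of Lep and Vegfa was -0.45 on high fat (adjusted permutation p = 0.00982), -0.46 on chow (adjusted permutation p = 0.00997) and -0.46 for the change (adjusted permutation p = 0.00997), and it was -0.28, -0.32 and -0.30 without 2 strains. Without the covariates Lep and Vegfa passed neither on chow (-0.26, adjusted permutation p = 0.152) nor for the change (-0.30, adjusted permutation p = 0.102), nor on any of the 3 measures in the matching strains (-0.15, -0.35 and -0.32). In the matching strains Lep and Cdh5 did not pass on high fat (r = 0.41, adjusted permutation p = 0.0916) and passed on chow (0.61) and for the change (0.56).

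The genes outside the list whose profile was most like the mean of 10 core endothelial genes over strains on both diets were Ablim3, Arhgef5, Scarb1, Ets2, Epha4, Fgd5, Arap3, Mecom, Bcl6b and Smtn. The lower of their r values on the 2 diets lay between 0.85 and 0.89, over 38 arrays each. Scarb1, the receptor for high density lipoprotein, was higher on high fat by 0.52 units (adjusted p = 1.2e-10), and Bcl6b, a transcriptional repressor of endothelium, by 0.39 (adjusted p = 4.35e-06). All 10 were higher on high fat, where 36.7% of all genes were. They were picked for likeness to core genes that mostly rose, so this count is not separate evidence.

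Of 98 other genes of the same pathways, in 12 lists, 59 (60.2%) were higher and 7 (7.1%) lower on high fat, where 36.7% and 24.5% of all genes were. In the matching strains 59 were higher and 6 lower, where 32.5% and 22.2% of all genes were. After quantile normalization 45 were higher and 10 lower, where 30.1% and 27.9% of all genes were, and with the tissue marker covariates 42 were higher and 7 lower, where 31.7% and 18.9% were. The lists hold 2 to 24 genes each, so each list's share is coarse. In the VEGF list 4 of 6 rose and 0 fell (6 rose in the matching strains and without BXD63), led by Nrp2, the co-receptor for VEGF-C (0.40 ± 0.24), Vegfc itself (0.32 ± 0.24) and the placental growth factor gene Pgf (0.29 ± 0.28), in 35, 34 and 32 strains. In the list of TIE and angiopoietin partners 5 of 6 rose, led by Svep1, a matrix protein that binds Tie1 (0.50 ± 0.52), and the adaptor Dok2 (0.41 ± 0.25). Angptl4 came next in size of change among the genes of this list past the threshold. Of 9 Notch partners 6 rose, among them the target Hey1 (0.29 ± 0.35) and the ligands Jag2 (0.14 ± 0.12) and Jag1 (0.13 ± 0.28). After quantile normalization 2 of the 9 were higher and 1 lower, with a median change of 0.051, against 0.121 as deposited, and Jag1 did not pass (0.05, adjusted p = 0.26). With the tissue marker covariates 3 were higher. Of 11 ALK1 and BMP partners 5 rose, led by the signal transducer Smad1 (0.32 ± 0.17), its inhibitor Smad6 (0.24 ± 0.25) and Gdf2, which encodes BMP9 (0.22 ± 0.20). That share, 45.5%, lies near the 36.7% of all genes, and it was 3 of 11 in the matching strains. After quantile normalization the count was 3 higher and 1 lower, with a median of -0.004, against 0.049 as deposited.

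Counts over 38 strains in the lists that follow stand beside 36.7% of all genes higher and 24.5% lower. Of 8 arterial and venous genes 5 rose, led by the chemokine receptor Cxcr4 (0.42 ± 0.43), the arterial connexin Gja5 (0.40 ± 0.29) and the arterial ephrin Efnb2 (0.30 ± 0.37). Of 24 other endothelial markers 15 rose and 1 fell, led by the surface lectin Cd93 (0.53 ± 0.42), Myct1 (0.33 ± 0.39) and Gpihbp1, which carries lipoprotein lipase across capillaries (0.32 ± 0.30). Of these 24, 10 were higher and 3 lower after quantile normalization, and 8 were higher and 2 lower with the tissue marker covariates. Lymphatic markers went the other way, with 3 of 5 lower and 0 higher. The chemokine Ccl21a fell by 0.67 ± 1.48, Reln by 0.27 ± 0.23 and Mmrn1 by 0.10 ± 0.26, while Lyve1 changed by -0.04 ± 0.66 and did not pass (adjusted p = 0.773). In the matching strains 2 of the 5 were lower, Mmrn1 did not pass (-0.07, adjusted p = 0.212), and Pdpn, or podoplanin, was higher by 0.20 (adjusted p = 0.00356). Ccl21a is also made in lymph nodes, and its change was 0.01 with the tissue marker means in the model (adjusted p = 0.96). Among venule adhesion genes 2 of 5 rose, Selp (0.24 ± 0.38) and the chemokine scavenger Ackr1 (0.18 ± 0.31) (36.7% of all genes rose). In the matching strains the same number of venule genes was higher, with Ackr1 at 0.28.

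Genes that restrain vessels were also among those that rose. The counts of the next lists stand beside 36.7% of all genes higher and 24.5% lower. Of 7 inhibitors of vessel growth 5 rose and 1 fell, led by Thbs1, or thrombospondin, at 12.97 ± 1.01 on high fat and 11.74 ± 1.04 on chow, a rise of 1.23 ± 1.30 units in 32 strains (adjusted p = 1.8e-06). Serpinf1, which encodes PEDF, rose by 0.43 ± 0.39 and Col18a1, the source of endostatin, by 0.34 ± 0.28. Of 7 oxygen sensing genes 5 rose, led by the vasodilator peptide gene Adm (0.61 ± 0.65), Epas1 (0.31 ± 0.23) and Hif1a (0.27 ± 0.31). Of 8 matrix and pericyte recruitment genes 6 rose and 1 fell, led by the basement membrane genes Hspg2 (0.56 ± 0.43) and Col4a2 (0.43 ± 0.39) and the pericyte receptor Pdgfrb (0.37 ± 0.34). In the apelin list Apln rose and Apela, a second ligand of Aplnr, fell by 0.15 ± 0.25 (-0.09 in the matching strains, adjusted p = 0.0215).

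**Figure D5:**
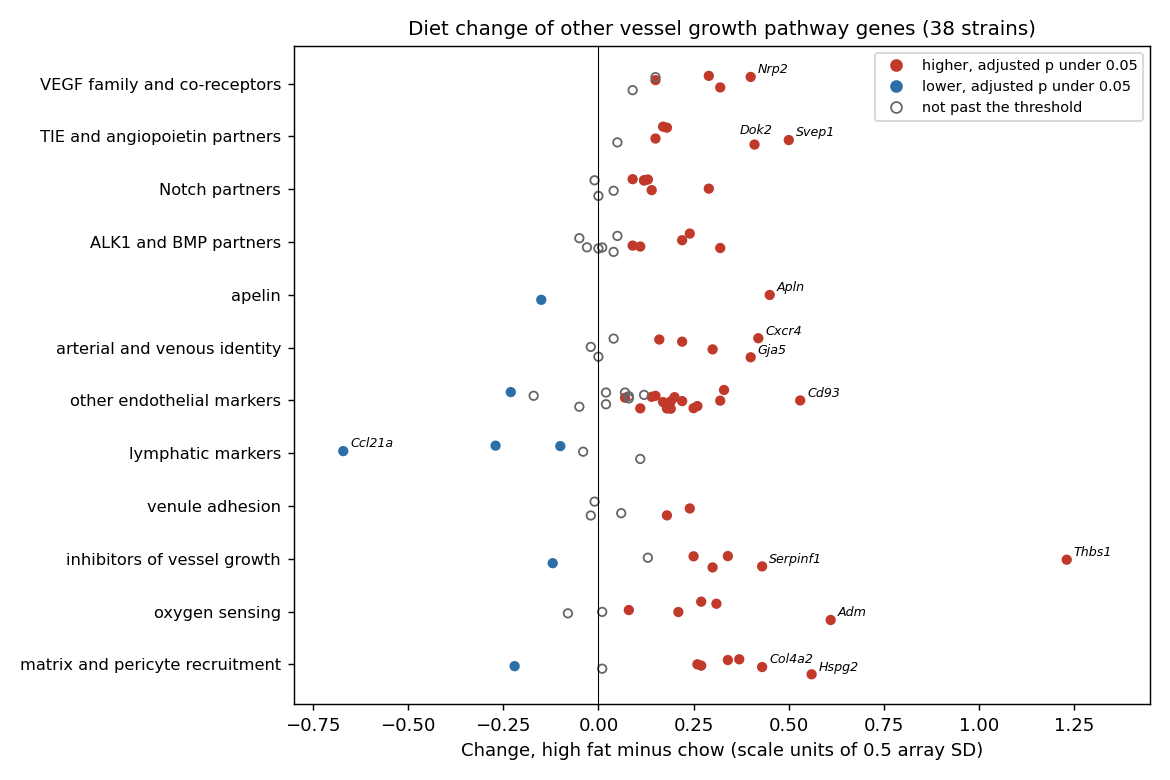
Change of 98 other vessel growth genes, high fat minus chow, in scale units, by list. Red points were higher and blue points lower at an adjusted p under 0.05, open circles did not pass, and names mark genes changed by at least 0.4 units, with Thbs1 (1.23) farthest right and Ccl21a (-0.67) farthest left.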

How the data were processed

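RNA was extracted from each animal and pooled by strain and diet, and each pool was hybridized to 1 Affymetrix array, per the labels' protocols. Per the submitters' processing notes, Affymetrix Expression Console and RMA were used (no versions given). The deposited table holds a score whose mean is 8 and whose SD is 2 on each of the 80 arrays, so the authors had rescaled log values within arrays by a step not given in the sources used here. The design had assumed log2 values; no folds are given. No hybridization date or batch was given, and no pool was repeated, so p-values measure the spread between strains.

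The feature with the highest mean stood for each symbol, without a filter on low values. Diet was fitted with limma 3.58.1 (R 4.3.3) with strain as a block and Benjamini-Hochberg adjustment over 38827 genes. The strain label gives the pairing; the deviations of a strain's 2 arrays had a median correlation over all genes of 0.19 (0.30 in the 23 matching strains, 0.08 in the others). Strains (moderated F test) and parents (contrast) came from the same fit, and correlations from permutation tests (scipy 1.17.1). The fits were tested on simulated data. Alternatives were quantile normalization, leaving out the lowest 40% of genes, no strain block, robust regression, tissue marker covariates, means over features and other sets of strains; matching strains only and BXD63 left out were added after the data were seen.

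All 35 genes are named, and of each pathway list the 3 genes with the largest change past the threshold. The genes, lists and pairs were chosen with earlier results of these data known. Of 99 pathway genes listed, Rasip1 had no match.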

Additional observations from a re-analysis of the deposited data

How the results depend on the processing

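No diet call among the 35 genes changed direction under any alternative run. With the tissue marker covariates the number higher on high fat was 17, and over the alternatives it lay between 17 and 29, with 2 or 3 lower. Without the strain as a replicate block 26 were higher and 3 lower and no call changed. Without the lowest 40% of genes, Prox1 was not tested, and 4 other pathway genes were lower, with fewer genes tested. The strain count was 2 without the lowest 40%, 5 with tissue covariates and 8 in matching strains. In the parental contrast DBA/2J was higher in 1 and lower in 0 with tissue covariates, and lower in 2 (Angpt1 and Prox1) in matching strains. Of the 12 correlations on high fat, 5 passed with tissue covariates and 3 in matching strains, where 8 did without either; for the change 5 passed under each, where 6 did. Signs turned for Ccl21a (0.01 with tissue covariates), for Angpt2 and Tek on high fat (r = -0.03 in matching strains) and for Prox1 and Flt4 on high fat (r = 0.10 with tissue covariates). The cause of these shifts was not tested. Array number and pooling limit precision.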

Other observations

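The high fat arrays of 15 strains were most like chow arrays of other strains over the 100 genes that fall into 2 clusters. The array labelled BXD73 on high fat matched the chow array of BXD79 (r = 0.903), BXD75 matched BXD80 (0.847), BXD79 matched BXD81 (0.815), BXD80 matched BXD83 (0.870) and BXD81 matched BXD84 (0.883). BXD83 matched BXD85 (0.916), BXD84 matched BXD87 (0.859), BXD85 matched BXD89 (0.873), BXD87 matched BXD90 (0.826) and BXD89 matched BXD95 (0.836). BXD90 on high fat matched BXD73 on chow (0.835) and BXD95 matched BXD75 (0.834). BXD51 on high fat matched BXD55 on chow (0.922) and BXD55 matched BXD51 (0.799), while BXD63 on high fat was closest to BXD43 (0.835), which also matched its own array (0.833). These values do not bear on the diet labels. Among chow arrays, BXD65 and BXD92a were alike over the same genes (r = 0.955), and so were BXD80 and BXD103 (0.802). On high fat BXD80 and BXD103 were not alike (r = -0.365), while BXD65 and BXD97 were alike on both diets (0.697 on high fat and 0.705 on chow). Which diet's arrays carry the differing strain labels was not tested.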
